A study of Mus musculus with 72 samples.

Results

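Epididymal white adipose tissue (eWAT), the visceral fat pad beside the epididymis of the male mouse, was compared with liver and with pituitary of the same animals in the reference group of the study. The members were the 6 eWAT libraries of the FED-CTRL group, out of 72 libraries in the series, and each was set against the liver and pituitary libraries that carried the same animal number (6 of each). FED-CTRL mice were male offspring, of the sighted FVB strain (FVB.129P2), of dams fed freely. They were weaned on postnatal day 21 and ate a 10% fat diet (CTRL) from 8 weeks of age. Pups of CR20 dams, whose food was cut by 20% from embryonic day 15, and mice on a 45% fat diet (HFD) make up the other 3 groups, FED-HFD, CR20-CTRL and CR20-HFD, which enter only at the end. The labels give 10 or 16 weeks of diet without saying which mice had which, and the methods place the sequenced mice at 10 weeks. Each library came from a small piece of whole tissue, so that adipocytes, their stroma, vessels, immune cells and the outer mesothelial layer were measured together. Fewer cells of a type and less RNA per cell cannot be told apart in such samples.

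White adipocytes store triglyceride in a single large droplet, take up fatty acids that lipoprotein lipase frees from circulating lipoproteins, make new fatty acids from glucose under insulin, and release fatty acids under adrenergic drive. They also secrete hormones, of which leptin reports fat stores to the brain and adiponectin acts on liver and muscle. Liver shares much of this lipid machinery and exports what it makes, whereas the pituitary is a gland of hormone-secreting cells with little lipid metabolism. The comparison asks which genes set eWAT apart from a second metabolic tissue and from an endocrine one, in mice fed the control diet and born to dams fed freely.

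Total counts were 18896702 to 22364963 per eWAT library, 12889761 to 19144967 in liver and 19873969 to 23666117 in pituitary. A mean of 13745.7 ± 164 genes (SD, n = 6) were over 1 CPM (counts scaled by library size) in eWAT, 12262.5 ± 209 in liver and 14396.2 ± 155 in pituitary. The 10 most abundant genes took 16.9% ± 0.847 of the eWAT counts and 33.4% ± 3.40 of those in pituitary, where growth hormone (Gh) alone took 25.4% ± 3.61. Albumin (Alb), with 6.92% ± 1.39, led in liver. RNA had been extracted with different reagents from liver than from eWAT and pituitary, so tissue and extraction cannot be told apart in any comparison with liver. Pairwise correlations between the eWAT libraries of this group were 0.987 to 0.992. Their marker lists did differ between mice, as given below.

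The label held against the defining markers. Adipoq, Lep and Plin1 stood in all 6 eWAT libraries at 39054 to 83850 counts each, and in no liver or pituitary library above 6 counts. None of the 14 epididymis and testis markers passed the filter on low counts, and none exceeded 4 counts in any eWAT library of the group. The 16 hepatocyte markers summed to 50.6 to 210 CPM in eWAT against 142229 to 209567 in liver, and the 18 markers of pituitary cells to 1.48 to 15.7 CPM against 214048 to 348823 in pituitary. Of the hepatocyte sum, Cyp2e1, a drug-metabolising enzyme of liver, made up most (946 to 5219 counts per eWAT library), while Cyp3a11 had no count and Cps1 a single count over the 6 libraries.

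The promoters of the 3 marker genes are shown because they are the genes by which the tissue was checked and differed from both other tissues by 14.00 to 16.62 on the log2 scale. Each run is 300 bases of RefSeq sequence on build GRCm38.p6, from 250 bases before to 50 after the annotated start, with the letters of any of 4 short motifs in capitals. The motifs, searched on both strands, were TTGCGCAA (a palindrome that C/EBP factors bind), AGGTCA (a nuclear receptor half-site), TATAAA (found near many start sites) and GGGCGG (which Sp1 factors bind). They do not overlap in the sequences shown.
Adipoq, chr16:23146286-23146585, plus strand: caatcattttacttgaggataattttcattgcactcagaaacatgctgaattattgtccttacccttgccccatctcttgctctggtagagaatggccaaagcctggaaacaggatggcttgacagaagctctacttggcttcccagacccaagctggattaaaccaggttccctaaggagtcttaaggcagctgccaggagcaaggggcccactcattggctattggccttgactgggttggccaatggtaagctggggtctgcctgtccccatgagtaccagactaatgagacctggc
Lep, chr6:29059971-29060270, plus strand: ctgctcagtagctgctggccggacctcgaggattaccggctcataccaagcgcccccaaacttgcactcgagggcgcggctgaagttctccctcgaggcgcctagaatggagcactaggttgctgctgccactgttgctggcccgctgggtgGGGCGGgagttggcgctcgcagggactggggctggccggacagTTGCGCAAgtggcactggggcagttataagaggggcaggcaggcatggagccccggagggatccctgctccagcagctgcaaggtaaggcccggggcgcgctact
Plin1, chr7:79732727-79733026, minus strand: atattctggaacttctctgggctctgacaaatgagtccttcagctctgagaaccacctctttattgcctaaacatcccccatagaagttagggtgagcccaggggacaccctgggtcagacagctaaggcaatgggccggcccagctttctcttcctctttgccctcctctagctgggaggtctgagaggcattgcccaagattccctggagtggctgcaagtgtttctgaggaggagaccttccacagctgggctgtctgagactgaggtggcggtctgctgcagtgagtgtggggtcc
The Lep promoter held GGGCGG and TTGCGCAA, and the Adipoq and Plin1 promoters held none of the 4 motifs. Among 32851 mouse promoters of the same length, 0.183% held TTGCGCAA, 16.3% AGGTCA, 13.6% TATAAA and 35.7% GGGCGG. A match is a description of letters in this window and not a binding site. Shares of the promoters of eWAT genes were not compared with those of other genes, because only 67.9% of the genes above both tissues had an entry, which voids such a comparison.

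Of 17255 genes that passed the filter on low counts, 4087 (23.7%) were higher in eWAT than the mean of liver and pituitary and 2941 (17.0%) were lower, at an adjusted p below 0.055 and a log2 fold change (log2FC) of at least 1 in edgeR's quasi-likelihood test within mice. Against liver alone 5029 genes (29.1%) were higher and 3359 (19.5%) lower. Against pituitary alone 4626 (26.8%) were higher and 4748 (27.5%) lower. Library scaling matters for the liver comparison: with total counts in place of TMM factors, 7763 genes were higher than liver and 2107 lower, which moved the higher share of the calls from 60.0% to 78.6%, and the median log2FC of all genes went from 0.12 to 0.88. Because a mean of 2 tissues can be carried by 1 of them, the genes that passed in both comparisons in the same direction are followed here. There were 2244 genes above both tissues (13.0%) and 1083 below both (6.28%). The 2244 genes took 37.6% to 39.8% of all eWAT counts, 2.93% to 3.64% in liver and 2.76% to 3.35% in pituitary. Their smaller log2FC reached 4 in 454 genes, 8 in 77 and 10 in 26. By annotation 1928 were protein coding and 212 long non-coding.

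**Figure D1:**
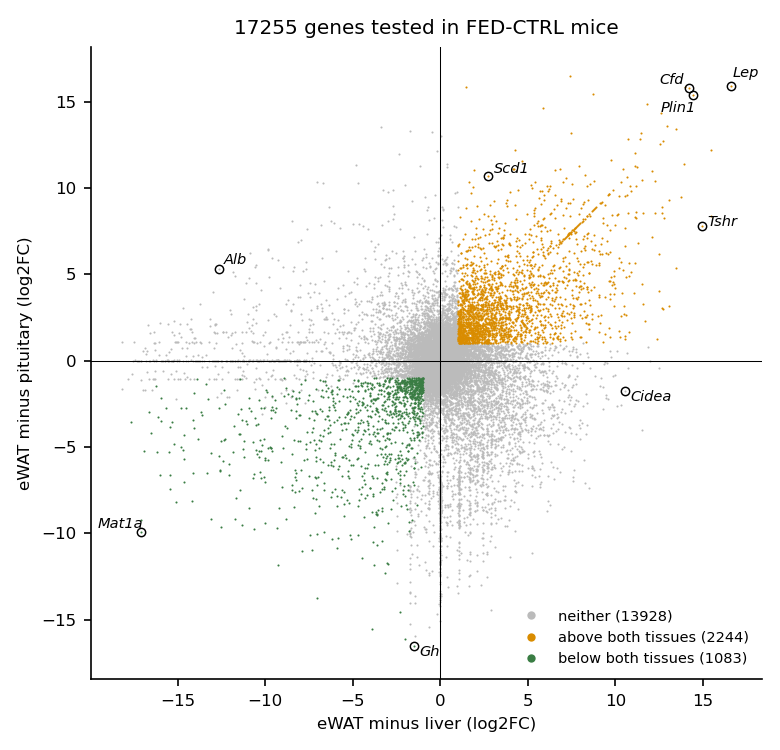
Difference between eWAT and liver (horizontal axis, log2FC) against the difference between eWAT and pituitary (vertical axis, log2FC) for 17255 genes in 6 FED-CTRL mice, 1 point a gene. Colours mark the 2244 genes above both tissues and the 1083 below both, and the adipocyte genes lie at the far upper right.

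Leptin (Lep, chromosome 6, 29060216 to 29073877, plus strand, GRCm39), the hormone of fat stores, had 46852, 47256, 64788, 50220, 48138 and 50076 counts in the eWAT of mice 14, 15, 16, 24, 41 and 42. In liver mouse 24 alone had a Lep count, 1, and in pituitary mice 14, 24 and 42 had 1, 1 and 2. The eWAT level was 160831 times the liver level, with a 95% counting interval of 26012 to 5724408, and 80256 times the pituitary level. Fitted differences that large rest on the prior count added to a few reads, so counts are given beside them throughout.

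Adiponectin (Adipoq, chromosome 16, 22964106 to 22976810, plus strand) had 79024, 82580, 76551, 63248, 82072 and 83850 counts in eWAT of the same mice. Liver libraries held 0 to 6 counts and pituitary libraries 0 to 5. The log2FC was 14.00 (SE 0.359, adjusted p = 1.65e-17) against liver and 15.84 (SE 0.382, adjusted p = 1.55e-17) against pituitary. Perilipin 1 (Plin1, chromosome 7, 79369966 to 79382718, minus strand), which coats the adipocyte droplet and guards it from lipases, had 42518, 45549, 46672, 39054, 42035 and 43604 counts. Liver and pituitary held 0 to 4 and 0 to 3. Its log2FC was 14.46 (SE 0.349) and 15.40 (SE 0.350). For all 3 genes the tissues did not overlap, eWAT was higher in 6 of 6 mice, and the exact test over the 64 sign changes of the within-mouse differences gave p = 0.03125, the smallest it allows. Because the tissue was checked by these same genes, that outcome was set in advance, and their p-values are given without weight. Mouse 24 had the lowest Adipoq and Plin1 counts, while Lep was highest in mouse 16.

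Secreted factors came next. Of 14 adipokine genes tested, 8 were above both tissues and none below both, beside 13.0% of all genes above both. Lep, Adipoq, Cfd and Retn passed the filter on low counts through their eWAT counts alone, so the count of 8 is given without weight. Against liver 9 were higher and 4 lower, and against pituitary 13 were higher and none lower. The median log2FC of the 14 was 2.30 against liver and 5.82 against pituitary, beside medians of 0.12 and 0 over all genes. Adipsin (Cfd), a complement protease, had 56813 to 96830 counts per eWAT library and a per-length level of 3479 ± 730 CPM per kb of exon (SD, n = 6), against 0.178 ± 0.205 in liver and 0.0578 ± 0.0911 in pituitary. Resistin (Retn), a hormone named for insulin resistance, had 17866 to 25871 counts in eWAT, 1 count in all liver libraries together and 0 to 10 per pituitary library. These 5 genes, Lep, Plin1, Cfd, Adipoq and Retn, were among the 10 with the largest smaller difference of all named protein-coding genes above both.

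The adipokine list was less uniform against liver than against pituitary. Rbp4, the plasma retinol carrier, stood at 436 ± 25.3 CPM per kb in eWAT, 3415 ± 553 in liver and 71.7 ± 8.40 in pituitary. Angptl8, an inhibitor of lipoprotein lipase activity, was lower than liver (log2FC -2.69, SE 0.289, adjusted p = 6.49e-08) and had 531 to 1715 counts in eWAT, 849 to 10001 in liver and 0 to 2 in pituitary. Per length the eWAT libraries averaged 39.6 ± 18.1 CPM per kb and the liver libraries 334 ± 287. Chemerin (Rarres2) did not differ detectably between eWAT and liver (log2FC -0.13, SE 0.124, adjusted p = 0.369, and 0.64 with total counts), and was 82.9-fold higher than pituitary. Serpina12, the gene of vaspin, had 10 counts over the 6 eWAT libraries against 12252 in liver. Apelin (Apln) was above liver by 7.27 and below pituitary by 0.94 on the log2 scale, the second of which is under the size used for a call. Sfrp5, a secreted WNT antagonist, had 2 counts in all liver libraries and was 8.94-fold higher than pituitary. One listed gene, Itln1, did not pass the filter.

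**Figure D2:**
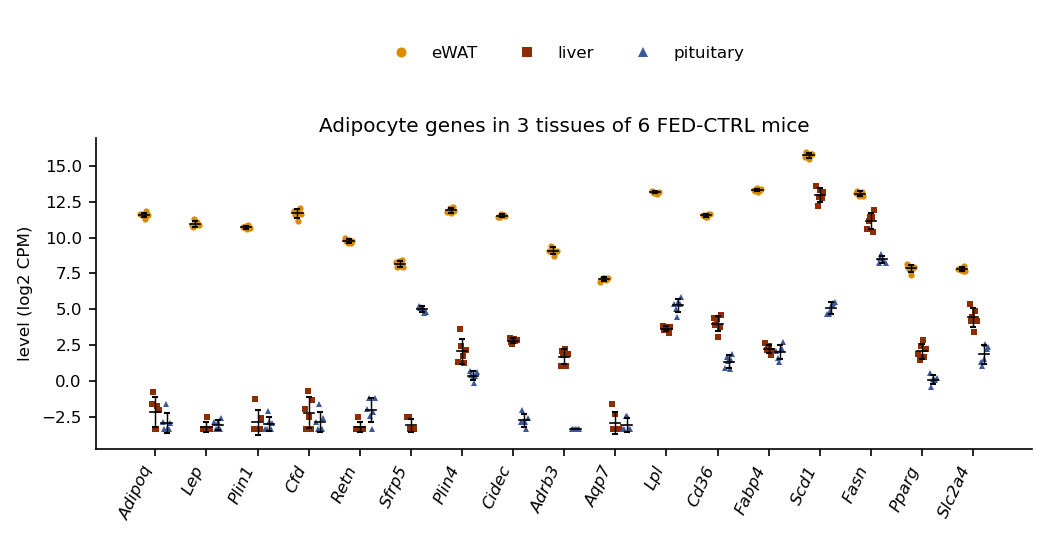
Level of adipocyte genes (log2 CPM, linear axis) in eWAT, liver and pituitary libraries of 6 FED-CTRL mice, 1 point a library, with bars at the mean ± SD. Adipoq, Lep, Plin1 and Cfd lie above 10 in every eWAT library and below 0 in every liver and pituitary library.

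Of 23 genes of the lipid droplet and lipolysis, 16 were above both tissues (13.0% of all genes) and none below both, with medians of 2.34 against liver and 4.11 against pituitary. Plin1, for one, passed the filter on low counts through its eWAT counts alone, so the count of 16 is given without weight. Cidec, which joins droplets into the single large one of white fat, had 68522 to 80445 counts in eWAT, 57 to 103 in liver and 0 to 4 in pituitary. Its spread between mice was small (SD 0.08 on the log2 scale). Plin4, the perilipin of nascent droplets, was 780-fold above liver and 3120-fold above pituitary. The 3 lipases that take a triglyceride apart in turn were all above both tissues: Pnpla2 (adipose triglyceride lipase) at 442 ± 66.3 CPM per kb against 23.3 ± 8.43 in liver and 25.9 ± 3.62 in pituitary, Lipe (hormone-sensitive lipase) at 287 ± 25.3 against 3.74 ± 1.27 and 2.88 ± 0.200, and Mgll (monoglyceride lipase) at 284 ± 19.3 against 80.9 ± 11.1 and 15.3 ± 1.24. Among the 3 lipases the smallest difference was that of Mgll against liver (log2FC 1.82, SE 0.103, adjusted p = 3.61e-12).

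The beta-3 adrenergic receptor (Adrb3), through which noradrenaline starts lipolysis, had 10571 to 18773 counts in eWAT, 20 to 61 in liver and 0 in all 6 pituitary libraries, which puts eWAT at least 27698-fold above pituitary. Pde3b, which ends that signal under insulin, was 2.61-fold above liver and 12.0-fold above pituitary. Abhd5, the activator of Pnpla2, was above both (log2FC 1.49 and 2.37). G0s2, its inhibitor, was above pituitary by 4.20 but fell just under the size used for a call against liver (log2FC 0.94, SE 0.246). The caveolar genes Cav1 and Cavin1, whose products line the adipocyte surface, were 1493-fold and 149-fold above liver. Aqp7, the glycerol channel of fat, had 4 counts in each of the other tissues in total and 21042 in eWAT. Plin2, the common perilipin of many cell types, stood at 65.9 ± 9.68 CPM per kb in eWAT and 67.6 ± 10.1 in liver, a difference that was not detectable (log2FC -0.05, SE 0.133, adjusted p = 0.758) and that turned to 0.71 with total counts. Plin5, of oxidative tissues, and Fitm1, of the endoplasmic reticulum, were lower than liver by 1.49 and 6.19.

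Of 10 genes of fatty acid uptake and binding, 7 were above both tissues (13.0% of all genes). Lipoprotein lipase (Lpl) had 186095 to 256003 counts in eWAT, 102 to 186 in liver and 492 to 1690 in pituitary, and took 1.11% ± 0.0749 of all eWAT counts. The binding protein Fabp4 had 230295 to 288981 counts in eWAT against 34 to 80 in liver and 53 to 184 in pituitary. The fatty acid receptor Cd36 was 178-fold above liver and 1176-fold above pituitary. Gpihbp1, which carries Lpl to the capillary lumen, was above both (log2FC 2.55 and 4.83). Acsl1, which activates fatty acids with coenzyme A, was 48.0-fold above pituitary and not detectably different from liver (log2FC 0.15, SE 0.152, adjusted p = 0.368). Lmf1, a folding factor of lipases, was lower than liver by 1.17 on the log2 scale (SE 0.118).

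Of 23 genes of lipogenesis, 22 were higher than pituitary (26.8% of all genes) and 8 were above both tissues (13.0%). Against liver 8 were higher and 5 lower, or 34.8% and 21.7% of the list beside 29.1% and 19.5% of all genes, and the median difference was 0.17 on the log2 scale. With total counts in place of TMM factors 10 were higher and 4 lower than liver, and the median was 0.93. Stearoyl-CoA desaturase 1 (Scd1), which makes monounsaturated fatty acids, was the most abundant gene of eWAT, with 1160726 to 1768657 counts or 6.71% ± 0.724 of each library. Liver libraries held 58045 to 157999 Scd1 counts and pituitary libraries 627 to 1285, so the 3 tissues did not overlap. The log2FC was 2.74 (SE 0.235, adjusted p = 2.38e-09) against liver and 10.67 (SE 0.330) against pituitary. Fatty acid synthase (Fasn) stood at 738 ± 72.8 CPM per kb in eWAT, 208 ± 80.4 in liver and 30.6 ± 5.37 in pituitary. Acetyl-CoA carboxylase (Acaca), the step before it, was 5.03-fold and 30.0-fold higher.

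The enzymes that finish triglyceride were also above both: Dgat1 by 2.56 and 3.95, Dgat2 by 1.40 and 7.31, Mogat1 by 3.63 and 1.77, and Gpd1, which supplies the glycerol backbone, by 1.53 and 6.36 on the log2 scale. The 5 genes lower than liver were 3 elongases and 2 regulators. The elongases Elovl3, Elovl5 and Elovl6 were lower by 7.66, 3.35 and 1.10, and the regulators of lipogenesis, Thrsp and the carbohydrate-response factor Mlxipl, by 1.83 and 1.86. Thrsp was nonetheless at 454 ± 56.2 CPM per kb in eWAT. Pck1, which makes glycerol in fat and glucose in liver, had 35777 to 54879 counts in eWAT, 17036 to 52360 in liver and 1 to 11 in pituitary. Per length it stood at 480 ± 54.6 CPM per kb in eWAT and 709 ± 271 in liver, and the log2FC against liver was -0.47 (SE 0.200), under the size used for a call, or 0.29 with total counts. The citrate-cleaving enzyme Acly did not differ detectably from liver either (log2FC 0.17, SE 0.138, adjusted p = 0.273).

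Of 17 adipogenic transcription factors, 6 were above both tissues (13.0% of all genes). Pparg, the nuclear receptor that drives adipocyte formation, had 4212 to 7050 counts in eWAT, 30 to 96 in liver and 17 to 34 in pituitary, a 53.1-fold and 235-fold difference. Its partner Cebpa did not differ detectably from liver (log2FC -0.16, SE 0.142, adjusted p = 0.321, and 0.61 with total counts) and was 116-fold above pituitary. The early B-cell factors Ebf1 and Ebf2, which act with Pparg, had 14 and 0 counts in all liver libraries, against 13403 and 2712 in eWAT. The preadipocyte factor Zfp423 was above liver by 7.49 and above pituitary by 1.37. Stat5a and the corepressor Tle3 were above both by 1.93 and 1.06, and by 2.60 and 1.03, but with DESeq2 size factors both fell under the size used for a call against pituitary (0.99 and 0.96). Cebpb and Klf15 were lower than liver (by 1.67 and 1.90) and higher than pituitary (by 1.52 and 2.08), while Rxrg and Cebpd were lower than pituitary by 2.36 and 2.03.

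Insulin signalling and glucose uptake had 7 of 12 genes above both (13.0% of all genes) and none below both. The insulin-responsive glucose transporter Slc2a4 (GLUT4) had 5156 to 6136 counts in eWAT, 142 to 527 in liver and 51 to 145 in pituitary. Trarg1, which travels with GLUT4 vesicles, was 3066-fold above liver and 364-fold above pituitary. Tbc1d4, the brake on those vesicles that insulin releases, was above liver by 3.72 and above pituitary by 3.42. The kinase Akt2 was above both (log2FC 1.35 and 1.72), whereas Akt1 was 12.9 ± 0.942 CPM per kb in eWAT, 11.3 ± 0.599 in liver and 20.1 ± 2.29 in pituitary. The insulin receptor (Insr) was above pituitary by 1.31, and its log2FC against liver was -0.44 (SE 0.0981), or 0.32 with total counts.

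Of 27 hormone and metabolite receptors tested, 14 were above both tissues (13.0% of all genes) and none below both. Mc2r, for one, passed the filter on low counts through its eWAT counts alone, so the count is given without weight. Mc2r, the ACTH receptor, had 733 to 1053 counts in every eWAT library and no count in any liver or pituitary library, at least 852-fold and 1779-fold higher. Tshr, the thyrotropin receptor, had 28270 counts in eWAT, none in liver and 127 in pituitary, the gland that makes its ligand. The natriuretic peptide clearance receptor Npr3 was 1666-fold above liver and 374-fold above pituitary. Hcar1 (a lactate receptor) was above both by 10.34 and 5.73, Hcar2 (ketone bodies and nicotinic acid) by 4.30 and 8.23, Ffar2 (short-chain fatty acids) by 8.78 and 10.43, Ptger3 (prostaglandin E2) by 10.84 and 10.13, and Adora1 (adenosine) by 2.26 and 3.02. The alpha-2A adrenergic receptor Adra2a had at most 21 counts in any eWAT library and did not pass the filter.

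Adrb3 stood at 96.5 ± 15.7 CPM per kb in eWAT and the beta-1 receptor Adrb1 at 2.20 ± 0.936, and Adrb1 was still above liver and pituitary. The growth hormone receptor (Ghr) did not differ detectably from liver (log2FC 0.09, SE 0.115, adjusted p = 0.491) and was 284-fold above pituitary. The succinate receptor Sucnr1 was at 29.6 ± 3.27 CPM per kb in eWAT and 29.4 ± 6.50 in liver, with no count in pituitary. The adiponectin receptors Adipor1 and Adipor2 were above pituitary by 1.28 and 3.25 and not called against liver. The glucagon receptor (Gcgr) was 717-fold lower in eWAT than in liver. The mineralocorticoid receptor Nr3c2 and the thyroid hormone receptor Thra were lower than pituitary by 2.22 and 1.62.

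Members of gene families were compared as shares of the family's summed per-length level. In 10 of 15 families the leading member by mean per-length level differed between eWAT and liver. In 5 it was the same gene (Cpt2, Ldha, Lpin1, Pfkl and Scd1). For the lipins this depended on the measure, since in liver Lpin1 led by mean level and Lpin2 by mean share. In the fatty acid-binding family, Fabp4 took 96.9% in eWAT (95.9% to 97.6% over 6 mice), Fabp1 98.8% in liver and Fabp5 60.8% in pituitary. Among the CIDE droplet proteins, Cidec took 99.6% in eWAT, Cideb 94.6% in liver and Cidea 99.6% in pituitary. Among glucose transporters, Slc2a4 took 89.7% in eWAT, Slc2a2 87.5% in liver and Slc2a1 71.9% in pituitary. Each of these was the leading member in all 6 libraries of its tissue.

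Other families were read in the same way. Pyruvate kinase, the last enzyme of glycolysis, was the muscle type Pkm in eWAT (100%, with no Pklr count) and the liver type Pklr in liver (98.2%). The glycerol channels were led by Aqp7 in eWAT (99.0%), Aqp9 in liver (99.98%) and Aqp3 in pituitary (99.2%). Desaturases were led by Scd1 in eWAT and liver (98.6% and 99.9%) and by Scd2 in pituitary (89.0%). Perilipins were led by Plin4 in eWAT (57.5%) and by Plin2 in liver (69.7%), and acyl-CoA synthetases by Acsl1 in eWAT (80.9%). Lpin1 led the lipins in eWAT and in pituitary (92.0% and 65.9%), while in liver Lpin1 and Lpin2 held 45.9% and 50.3%, and Lpin1 led in 3 of 6 libraries. Desaturase and CIDE members are close in sequence, so reads could be split between them in counting.

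**Figure D3:**
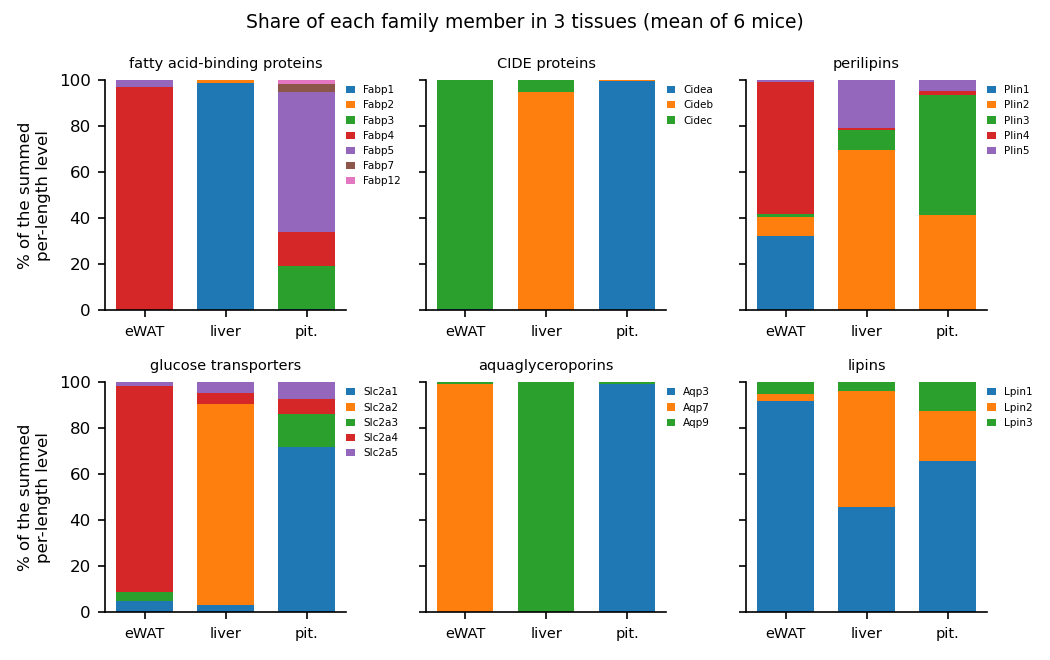
Share of each member of 6 gene families in the family's summed per-length level (percent, bars stacked from 0 to 100), as the mean of 6 FED-CTRL mice in eWAT, liver and pituitary. In all 6 families the member with the largest share differs between the eWAT bar and the liver bar. The liver bar of the lipins is shared by Lpin1 (45.9%) and Lpin2 (50.3%).

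Hox genes, the transcription factors that mark position along the body axis, were present in eWAT in all 4 clusters. Of 39 listed genes, 22 passed the filter on low counts, all 22 of them above both tissues. Most of these passed through their eWAT counts, so the count of 22 is given without weight, and the 17 others had at most 27 counts in any eWAT library and none in liver or pituitary. The HoxC cluster (chromosome 15, 102829538 to 102945278) had the highest summed per-length level, 56.0 CPM per kb in eWAT against 0.0166 in liver and 0.0588 in pituitary. The HoxA cluster (chromosome 6, 52132570 to 52237822) summed to 12.8 in eWAT and 0.607 in liver, the HoxB cluster (chromosome 11, 96085106 to 96259082) to 11.9 and 1.13, and the HoxD cluster (chromosome 2, 74498654 to 74595486) to 4.70 and 0.0120.

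Hoxc8 was the most abundant, with 2480, 2433, 2239, 2092, 2067 and 2503 counts in the eWAT of mice 14, 15, 16, 24, 41 and 42, 2 counts in all liver libraries and 1 in all pituitary libraries. Its eWAT level was 3000 times that of liver (95% counting interval 902 to 26898) and 12887 times that of pituitary (2442 to 537604). Hoxc6, Hoxc5 and Hoxc4 of the same cluster followed at 10.8, 8.34 and 5.95 CPM per kb. The next genes up the cluster were lower: Hoxc9 had 438 counts over the 6 libraries and Hoxc10 at most 4 in any. Of the other clusters, Hoxa7 and Hoxb7 led with 5.14 ± 0.340 and 3.98 ± 0.764 CPM per kb, and Hoxd8 and Hoxd4 had no count in liver or pituitary. Of the 22 genes, Hoxb4, Hoxa2 and Hoxb3 had the smallest differences from liver (log2FC 1.77, 1.80 and 2.04). Neighbouring Hox genes overlap in their transcripts, and their counts are uncertain to that degree.

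**Figure D4:**
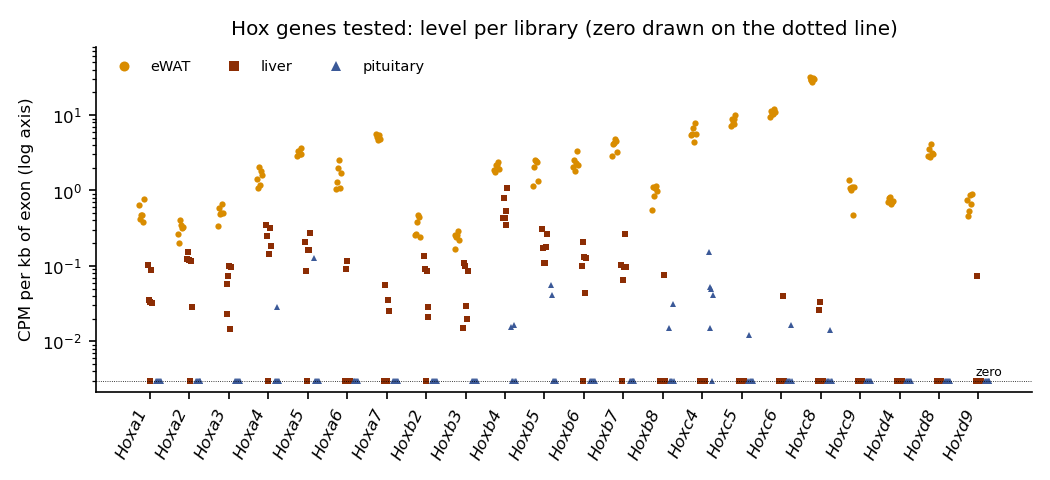
Per-length level of the 22 Hox genes tested (CPM per kb of exon, log axis, zero drawn on the dotted line) in eWAT, liver and pituitary, 1 point a library of 6 FED-CTRL mice. Hoxc8 is highest at about 30 in eWAT, and most liver and pituitary points lie at or near zero.

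Of 21 other positional transcription factors tested, 9 were above both tissues (13.0% of all genes) and 1, Irx1, below both. Twist1, a mesenchymal factor, had no liver count and was 15.6-fold above pituitary. Prrx1, of connective tissue lineages, was above both by 6.40 and 3.22. Osr1 had 2279 counts over the eWAT libraries, 2 in liver and 14 in pituitary, Tbx18 622, 1 and 24, and Gata5 514, 18 and 0, and all 3 were above both. Wt1, which marks mesothelium and visceral fat progenitors, had 2141 counts in eWAT, 29 in liver and 1 in pituitary. Tcf21, a visceral mesoderm factor, was lower than liver (log2FC -1.72, SE 0.200) and under the size used for a call against pituitary (log2FC 0.99, SE 0.213).

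The other cell types of the fat pad were read from their marker lists. Of 20 stromal progenitor and fibroblast genes, 15 were above both tissues (13.0% of all genes), among them Col3a1 at 136 ± 32.2 CPM per kb (22.4-fold and 68.2-fold), Col15a1 at 105 ± 12.4 (64.1-fold and 21.3-fold) and Pdgfra at 3.41 ± 0.553 (6.69-fold and 3.62-fold). Of this list Dpp4 was lower than liver by 1.43, and Thy1 lower than pituitary by 3.03. Sparc, a collagen-binding matrix protein, and the galectin Lgals1 were among the 10 named protein-coding genes above both with the highest per-length level, at 890 ± 123 and 1051 ± 122 CPM per kb.

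Of 13 mesothelial genes, 10 were above both (13.0% of all genes), with Msln at 29.7 ± 7.32 CPM per kb and Upk3b at 42.0 ± 10.4. Upk3b had 2089 to 5326 counts per eWAT library, 18 to 50 in liver and none in pituitary. The keratins Krt8 and Krt18 of that list, which hepatocytes and gland cells also make, were below both tissues (by 4.33 and 2.68, and by 4.19 and 3.49). Of 12 endothelial and 8 mural markers, 5 and 4 were above both (13.0% of all genes). Vwf was above liver by 2.83 and pituitary by 3.81, Pecam1 by 2.85 and 1.47, and Acta2 of smooth muscle by 4.34 and 5.11.

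Of 15 macrophage genes, 8 were above both (13.0% of all genes). F13a1 was 649-fold above liver and 308-fold above pituitary, Cd163 12.3-fold and 156-fold, and Adgre1 3.52-fold and 7.21-fold. The complement gene C1qa and the efferocytosis receptor Timd4 did not differ detectably from liver (adjusted p = 0.216 and 0.401). The Kupffer cell gene Clec4f, of liver macrophages, had 17255 counts in liver and none in eWAT or pituitary, and Vsig4 was lower in eWAT than in liver by 3.01. Lymphocyte markers were sparse, at a summed 16.3 to 55.2 CPM in eWAT, and 3 of 9 tested were above both, or 5 with total counts. Of the brown and beige adipocyte list, Ucp1, the uncoupling protein, had at most 5 counts in any eWAT library and did not pass the filter, and Cidea was lower in eWAT than in pituitary by 1.74. Cox8b was above both, with 1366 counts against 2 in liver and 65 in pituitary. Of 5 skeletal muscle genes tested, only Acta1 was above both (2543 counts in eWAT, 3 in liver, 79 in pituitary).

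**Figure D5:**
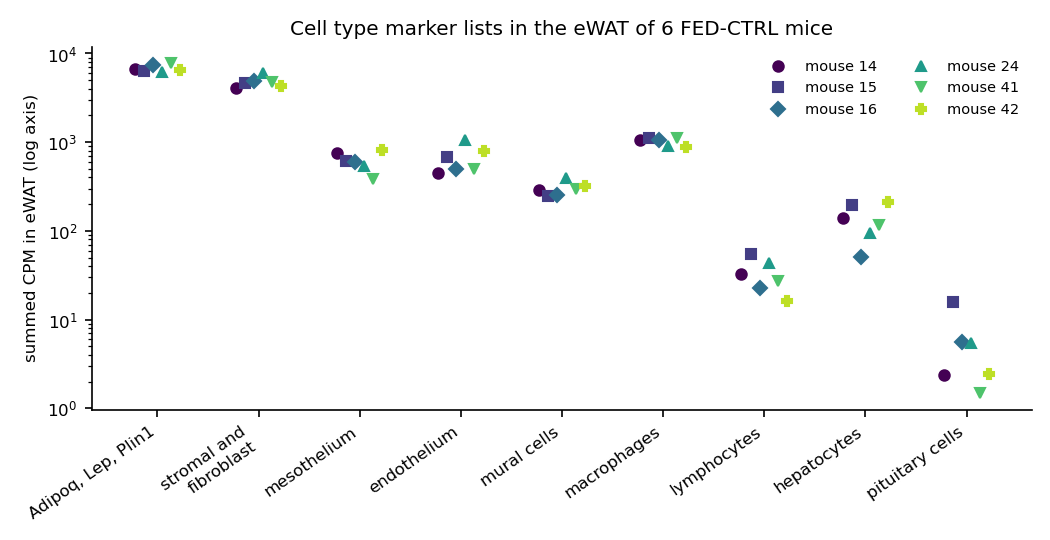
Summed level of each marker list in the eWAT libraries (CPM, log axis) of the 6 FED-CTRL mice, 1 symbol a mouse. Mouse 24 is lowest for Adipoq, Lep and Plin1 and highest for the stromal, endothelial and mural lists.

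The 6 eWAT libraries differed among themselves in these lists. The median SD between mice was 0.183 on the log2 scale over all genes tested and 0.241 over the genes above both. Of the adipocyte genes, Cidec, Fabp4 and Lpl had SDs of 0.08, 0.09 and 0.08 on the log2 scale, Lep 0.20, Pparg and Adrb3 0.24, and Cfd 0.32. Mouse 24 had the lowest summed Adipoq, Lep and Plin1 level (6118.53 CPM, against 7713.41 in mouse 41) and the highest stromal (6078.57 CPM), endothelial (1048.74 CPM) and mural (394.859 CPM) sums of the 6. Even so Pi16, a marker of progenitors near vessels, was lowest in mouse 24, with 267 counts against 852 to 1723 in the other mice. The B-cell gene Ms4a1 had an SD of 1.48 on the log2 scale, and Pi16 and Hilpda, a hypoxia-responsive inhibitor of lipolysis, had SDs of 0.95 and 0.85. The part of these shifts in single differences was not tested, but leaving out each mouse in turn kept the number of genes above both between 2240 and 2280.

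Some genes above both tissues are less familiar from adipocytes. By the size of the smaller difference, the first 10 named protein-coding genes held Adig (adipogenin), Prr32, Lctl and Apol6 beside Mc2r and the 5 genes above. Adig had 1 count in all liver libraries, 1 in all pituitary libraries and a per-length level of 115 ± 5.80 CPM per kb in eWAT. Prr32 had 925 to 1219 counts in every eWAT library and none in liver or pituitary, at least 985-fold and 2058-fold higher. Lctl, of the klotho family, stood at 45.8 ± 9.36 CPM per kb, with 1 count in all liver libraries and none in pituitary. Apol6 stood at 51.6 ± 4.75 CPM per kb, with 7 counts in liver and 1 in pituitary. Outside the protein-coding genes, the long non-coding Gm5627, named after its values were seen, ranked with them by its smaller log2FC of 13.43 and had 10123 counts in eWAT and none in liver or pituitary. In all, 52 genes above both had no count in any liver or pituitary library, out of 52 such genes among the 17255 tested. These genes, Prr32 and Gm5627 among them, passed the filter on low counts through their eWAT counts alone. The count is therefore given without weight. By per-length level, among named protein-coding genes above both, Car3, a carbonic anhydrase of fat, liver and slow muscle, came second to Scd1 with 496080 to 612140 counts in eWAT, 67782 to 112548 in liver and 5 to 17 in pituitary.

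The named protein-coding genes lowest in eWAT also had counts near zero there. Mat1a, which makes S-adenosylmethionine in liver, had 0 to 2 counts per eWAT library, 52882 to 87207 in liver and 779 to 1002 in pituitary. Cyp2f2, a detoxifying enzyme, had 30 counts over the 6 eWAT libraries, 85917 in liver and 23600 in pituitary. The water channel Aqp4, Olfm3 and Cyp2a5 had no eWAT count at all, which puts liver at least 811-fold, 323-fold and 43555-fold higher. Cyp2a5 has close relatives in its cluster, among which reads may be split. Serinc2 was 532-fold lower than in liver. Sall1 and Zfp750 had 2 counts each over the 6 eWAT libraries, Cldn2, a tight junction protein, had 1, and the synaptic vesicle protein Syt1 had 4 against 17638 in pituitary. In all, 63 of the 1083 genes below both had no count in eWAT, beside 505 of all 17255 genes tested.

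The comparison was repeated in the mice of the other 3 groups, which share no library with FED-CTRL. Fitted alone, FED-HFD had 2349 genes above both (13.7%), CR20-CTRL 2051 (11.9%) and CR20-HFD 2035 (11.9%). These held 1898, 1890 and 1863 of the 2244 FED-CTRL genes, or 84.6%, 84.2% and 83.0% of the FED-CTRL list and 80.8%, 92.2% and 91.5% of each group's own list. All 3 groups held 1608 of them (71.7%), and none was below both in any group. Of the 1083 genes below both, 772, 673 and 805 were called again, beside 5.71%, 4.56% and 5.52% of all genes below both in each group, and all 3 groups held 541 of the 1083 (50.0%). The 118 genes called above both in FED-CTRL only had a median smaller log2FC of 1.23, close to the size used for a call.

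Some eWAT libraries of the other groups stood apart. FED-HFD mouse 23 had the lowest summed Adipoq, Lep and Plin1 level, 2841.03 CPM against 7728.69 to 9115.08 in FED-CTRL (as CPM of all counts, without TMM factors). FED-HFD mouse 10 had the highest hepatocyte list of its group, 1047.32 CPM. The highest sums of CR20-CTRL (1126 CPM, mouse 5) and of CR20-HFD (978.249 CPM, mouse 32) were near it in size, against at most 257.182 CPM in FED-CTRL. They did not rest on the same genes. The highest eWAT level of Alb was 8.65 log2 CPM in FED-HFD, 8.22 in CR20-CTRL and 4.16 in CR20-HFD. That of Cyp2e1 was 6.03, 9.53 and 9.63. CR20-CTRL mice 4 and 5 and CR20-HFD mouse 6 had 132, 62.4 and 28.5 CPM of the epididymis and testis list, against at most 0.212 in FED-CTRL. Without FED-HFD mouse 10, 1892 of the 2244 genes and 755 of the 1083 were called again, without mouse 23, 1956 and 781, and without both, 1949 and 757. Without CR20-CTRL mice 4 and 5 the numbers were 1943 and 815.

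The difference itself was then tested between groups, on all 72 libraries. Against FED-CTRL, the eWAT difference from the mean of liver and pituitary was more positive in FED-HFD for 306 of 19210 genes (1.59%) and more negative for 61 (0.318%). Without FED-HFD mouse 23 the numbers were 109 and 8, without mouse 10 they were 387 and 69, and without both 119 and 8. For CR20-CTRL and CR20-HFD edgeR called no gene, with 1242 and 706 of the 19210 genes at an unadjusted p below 0.05. A share of about 0.05 of all genes falls there when none differs, so these 2 counts are given without weight. Since all 3 tissues enter this difference, a gene could move through liver or pituitary as well as through eWAT, and eWAT levels are given beside it. The macrophage genes Trem2 and Adgre1 moved by 2.54 (SE 0.512, adjusted p = 0.00244) and 1.53 (SE 0.278, adjusted p = 0.000956), with eWAT levels of 4.81 ± 0.34 and 7.02 ± 1.18 log2 CPM for Trem2 in FED-CTRL and FED-HFD and 5.50 ± 0.30 and 7.03 ± 0.93 for Adgre1 (SD, n = 6). Prrx1 moved by 1.57, from an eWAT level of 5.51 to 5.97 in FED-CTRL mice to 6.28 to 7.01 in FED-HFD, with no overlap.

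Among genes of adipocytes, Cfd moved by -3.61 (SE 0.992, adjusted p = 0.0318), with eWAT levels of 11.19 to 12.12 log2 CPM in FED-CTRL and 7.20 to 11.60 in FED-HFD, which overlap. Rbp4 moved by -1.51 (adjusted p = 0.00604) and Pparg by -1.25 (adjusted p = 0.0209). Without mouse 23, Cfd moved by -3.36 (adjusted p = 0.12), Pparg by -1.14 (adjusted p = 0.084) and Adrb3, which moved by -3.53 with all mice, by -3.29 (adjusted p = 0.0625), so that their calls were lost. Without mouse 10 Adrb3 moved by -1.95 (adjusted p = 0.48), and Mat1a, whose difference was 5.14 less negative in FED-HFD with all mice, by 3.75 (adjusted p = 0.101). Trem2, Adgre1, Prrx1, Rbp4 and Scd1 were called with all mice, without mouse 10, without mouse 23 and without both. Their values without both were 1.98, 1.36, 1.74, -1.22 and 2.22. Scd1 moved by 1.62 with all mice although its eWAT level was 15.78 ± 0.17 log2 CPM in FED-CTRL and 15.05 ± 0.95 in FED-HFD. Its log2FC against liver was 2.74 in FED-CTRL and 6.35 in FED-HFD, and against pituitary 10.67 and 10.33. The paper reports a decrease of liver Scd1 in both HFD groups. The part of the hepatocyte list and of the lower adipocyte markers in these differences was not tested beyond leaving out mice 10 and 23.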

How the data were processed

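RNA-seq was run on eWAT, liver and pituitary of male mice, 72 libraries in all, of which 18 (6 mice, 3 tissues) carry the main comparison. The authors trimmed reads with Trimmomatic, aligned them with STAR to GRCm39 and counted them per gene with featureCounts of Subread; the deposited values are raw counts for 55416 Ensembl genes, 54749 of them named. Whether counting used strand is not given in the sources used here, and 2 library kits are named. Liver was extracted with other reagents than eWAT and pituitary. No column of per-sample values was left unmatched to a sample (0 columns).

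Counts were tested with edgeR 4.0.16 (R 4.3.3): filterByExpr, TMM factors, and a quasi-likelihood fit with mouse and tissue as terms, contrasting eWAT with the mean of liver and pituitary and with each alone. Benjamini-Hochberg adjusted p below 0.055 (the threshold of the study) and a log2FC of at least 1 made a call, and 17255 genes were tested. Mouse was a term because tissues with the same animal number come from the same mouse. Deviations from tissue means correlated at 0.0671 (eWAT and liver), 0.0790 (eWAT and pituitary) and 0.0946 (liver and pituitary) on average within a mouse and at -0.0135, -0.0158 and -0.0198 between mice, over 13795 genes. Log2 CPM used a prior count of 2. Per-length levels are TMM-scaled CPM per kb of union exon (GENCODE M39, GRCm39). Folds against a group with no count use a floor of 3 counts over the group and are lower bounds; for 1 to 3 counts a 95% counting interval is given, which covers counting error only. Single genes were also tested by exact sign changes over 6 mice, two-sided. Differences between groups were fitted on all 72 libraries. On simulated counts for 17027 genes, the fit recovered 196 of 200 changed genes against liver and called 0 genes outside those 200. The changed genes were all over 1 CPM and of a fixed size of change, every other gene was equal between tissues, and mice did not differ. The simulation therefore does not cover the dependence on library scaling seen against liver.

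Named genes were Adipoq, Lep, Plin1, members of the gene lists, the 10 genes above both tissues with the largest smaller log2FC, the 10 with the highest per-length level and the 10 lowest below both, protein coding and named. Members and lists were chosen with earlier results of these data known. Alternatives covered scaling, filters, DESeq2 1.42.0, limma 3.58.1 voom, thresholds and each mouse left out. Promoters are from RefSeq, GRCm38.p6, and were matched by symbol for 12420 of 17193 tested names (72.2%).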

Additional observations from a re-analysis of the deposited data

Results flagged for a closer look

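Of 182 named genes checked in the 6 eWAT libraries of the FED-CTRL group, 10 had 1 library whose gap to its nearest neighbour, as a share of the group's range, passed Dixon's 95% limit, which chance does in about 1 of 20 groups. Mouse 24 was lowest for Pde3b (gap 0.644 of the range, 7.29 against 7.78 log2 CPM) and Mogat1 (0.717), and highest for Lctl (0.711) and Kcnk3 (0.626). Mouse 41 was highest for Stat5a (0.783) and Slc2a4 (0.663) and lowest for Hoxc9 (0.719, 0.48 against 1.54 log2 CPM). Mouse 14 was lowest for Mlxipl (0.648) and Ptger3 (0.69), and mouse 15 for Acta1 (0.635).

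For 11 named genes the eWAT difference from the mean of liver and pituitary was not the same in FED-HFD as in FED-CTRL by edgeR's test of that difference over all 72 libraries. It was more positive in FED-HFD for Mat1a (5.14 on the log2 scale), Trem2 (2.54), Scd1 (1.62), Prrx1 (1.57), Adgre1 (1.53), Fabp5 (1.10) and Metrnl (1.01), and more negative for Cfd (-3.61), Adrb3 (-3.53), Rbp4 (-1.51) and Pparg (-1.25). The Mat1a difference is negative and was less so in FED-HFD. Without FED-HFD mouse 10 the calls of Mat1a and Adrb3 were lost, and without FED-HFD mouse 23 those of Cfd, Metrnl, Adrb3, Pparg and Fabp5.

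In the eWAT of the other groups, the epididymis and testis list, which no comparison uses, summed to 132 CPM in CR20-CTRL mouse 4, 62.4 in CR20-CTRL mouse 5 and 28.5 in CR20-HFD mouse 6, against at most 0.212 in FED-CTRL.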

How the results depend on the processing

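Of the count of calls in each comparison, those that moved by over 1.5 times did so with scaling, with the size threshold or without FED-HFD mouse 23. With total counts in place of TMM factors 7763 genes were higher than liver and 2107 lower, and the negative FED-HFD difference held 39 genes. In choices made after seeing the data, that difference was positive for 387 genes and negative for 69 without FED-HFD mouse 10, for 109 and 8 without mouse 23, and for 119 and 8 without both, beside 306 and 61 with all mice; the cause was not tested. The median log2FC of all genes in FED-CTRL moved with total counts to 0.44 against the mean, 0.88 against liver and 0.10 against pituitary. With a log2FC of 0.58 the genes below both numbered 1695. With a log2FC of 2 the counts were 2264 higher and 1515 lower than the mean, 3304 and 1953 than liver, 2535 and 2910 than pituitary, 1210 above both and 562 below both. Leaving out each mouse gave 4087 to 4140 higher and 2862 to 2917 lower than the mean, 4960 to 5091 and 3289 to 3382 than liver, 4616 to 4700 and 4749 to 4805 than pituitary, 2240 to 2280 above both and 1046 to 1076 below both. Without the replicate block 2224 genes were above both and 1099 below both, and no count moved by over 1.5 times.

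Signs turned for 8 named genes near 0 against liver or pituitary. With total counts, against liver, Rarres2 was 0.64, Plin2 0.71, Pck1 0.29, Cebpa 0.61, Insr 0.32 and Slc2a1 0.59, the direction in which that scaling moved all genes. Sucnr1 against liver was -0.01 with DESeq2 size factors and with DESeq2's Wald test, and from -0.10 (without mouse 15) to 0.12 with a mouse left out. Plin2 against liver was 0.03 with no filter and from -0.12 to 0.04 (without mouse 41) with a mouse left out, and Cideb against pituitary from -0.89 to 0.23 (without mouse 14). Precision at low levels is limited by depth: folds against liver or pituitary rest on 0 to 3 counts for many eWAT genes.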
